A study of Mus musculus with 36 samples.

Results

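T cells were identified in dissociated mouse submandibular glands as cells with transcripts of the CD3 complex, and 179 of the 25993 cells that passed the filters met this rule. A cell had to hold at least 1 unique molecular identifier (UMI, the count of a captured transcript) of Cd3e, Cd3g or Cd3d and at least 1 UMI of Trbc2, Trbc1, Cd7, Nkg7, Ccl5, Cd8a or Cd4. It was also required to have no UMI of C1qa or C1qb, which mark macrophages, or of Krt14, a basal epithelial keratin. The cells came from 26 glands measured by Drop-seq, where single-cell transcriptomes are captured on barcoded beads in droplets, and from 4 glands measured by CITE-seq, which adds DNA-tagged antibodies for surface proteins. Drop-seq gave 118 T cells, 36 in control and 82 in double-mutant glands, and CITE-seq gave 61, 21 in control and 40 in double-mutant glands.

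All mice were of C57BL/6 background and carried K14-Cre, which is active in the basal epithelium, and the Cre-inducible R26 EYFP reporter. Double-mutant mice, a model of salivary gland squamous cell carcinoma, combined these with a gain of function of β-catenin and a loss of function of Bmpr1a, which control mice (labelled wildtype or control) lacked. The Drop-seq glands were 6 control and 7 double-mutant glands at postnatal day 40 (P40) and 6 control and 7 double-mutant glands at day 90 (P90), of both sexes. The CITE-seq glands were 2 control glands (replicate 1 male, replicate 2 female) and 2 double-mutant glands (both female) at P70, and each library was 1 gland. Bulk mRNA-seq was from 1 control gland (P70) and 1 double-mutant gland (P100), both female.

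T cells recognise antigen through the T cell receptor, a heterodimer of alpha and beta or of gamma and delta chains that depends on the CD3 chains to reach the surface and to signal. The CD8 coreceptor binds MHC class I and marks most cytotoxic T cells, while CD4 binds MHC class II and marks helper and regulatory T cells. In epithelial tissues many T cells stay resident, held by the integrin CD103 (encoded by Itgae), which binds E-cadherin, and marked by CD69. Innate-like lymphocytes of such tissues share granzymes, Xcl1 and the signalling adaptors Tyrobp and Fcer1g with natural killer cells.

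The 3 CD3 genes lie in 1 cluster on mouse chromosome 9 (GRCm38, mm10). In the GENCODE annotation, Cd3g spans 44969572 to 44980431 on the minus strand, Cd3d spans 44981786 to 44987339 on the plus strand and Cd3e spans 44998740 to 45009627 on the minus strand. The first transcribed bases of Cd3g and Cd3d, in RefSeq, are 1355 bases apart, and those of Cd3d and Cd3e are 27825 bases apart. Because these genes chose the cells, the 250 bases before each start are printed 5′ to 3′ (RefSeq, GRCm38.p6), with GGAA and its reverse complement TTCC, the core letters recognised by ETS family factors, in capitals.
Cd3g promoter, chr9:44980432-44980681, minus strand: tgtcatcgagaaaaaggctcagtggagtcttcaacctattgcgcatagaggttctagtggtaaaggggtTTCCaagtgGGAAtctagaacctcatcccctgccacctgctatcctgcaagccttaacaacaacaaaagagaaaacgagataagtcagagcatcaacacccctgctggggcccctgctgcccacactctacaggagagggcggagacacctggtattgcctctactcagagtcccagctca
Cd3d promoter, chr9:44981536-44981785, plus strand: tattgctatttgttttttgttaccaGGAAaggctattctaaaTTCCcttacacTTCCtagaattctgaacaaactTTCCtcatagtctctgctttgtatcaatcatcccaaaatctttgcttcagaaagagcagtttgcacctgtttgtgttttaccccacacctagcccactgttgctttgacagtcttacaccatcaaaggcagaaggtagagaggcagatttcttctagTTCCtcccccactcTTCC
Cd3e promoter, chr9:45009612-45009861, minus strand: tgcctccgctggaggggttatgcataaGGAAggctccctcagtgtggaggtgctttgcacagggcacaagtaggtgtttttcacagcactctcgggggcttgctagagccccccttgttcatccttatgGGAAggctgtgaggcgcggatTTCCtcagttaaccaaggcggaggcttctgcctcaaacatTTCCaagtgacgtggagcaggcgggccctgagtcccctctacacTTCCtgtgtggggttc
These windows held 2, 6 and 5 matches on either strand, respectively. Of 32851 promoter windows of the same length, 93.4% held at least 1 match and the median was 3. As many matches as in Cd3d were found in 8.69% of all windows, as many as in Cd3e in 18.0%, and as many as in Cd3g in 76.8%. The match is a description of letters and not of binding.

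T cells held few transcripts, which limits what was detected per cell. Their median was 725 UMIs (153 to 18530) and 491 genes, against 1495.5 UMIs and 489.5 genes in the other cells. A second lymphocyte population served as the closest comparison and consisted of 150 cells without a CD3 UMI but with Nkg7 and at least 1 of Gzma, Gzmb, Prf1, Klrd1, Klrk1, Klrb1c or Ncr1, and without C1qa, C1qb or Krt14 (median 824 UMIs). These are called Cd3-negative lymphocytes, although at this depth a missing CD3 UMI does not show that a cell lacked the transcript. Among the T cells, 13 had UMIs of all 3 CD3 genes, 50 of 2 and 116 of 1, and 76 cells rested on 1 CD3 UMI in total. At the edge of the rule, 22 T cells had 1 CD3 UMI and UMIs of 1 second gene, while 54 cells with a CD3 UMI were left out for want of a second gene and 12 because of C1qa, C1qb or Krt14. No barcode was shared among the T cells of different libraries, and 2 T cell barcodes also occurred in another library. The median number of UMIs per cell ranged from 408 to 4671 between libraries, 2 libraries went against their sex label by their sex-linked transcripts, and double-mutant P90 replicate 4 was left out of sub-clustering by the study for its content of ribosomal genes. Leaving out these libraries is named beside a result where it changes it.

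Genes of the T cell receptor and its signalling that the rule did not use were detected in these cells, which is a description, since they are correlated with the rule genes. Trac, the constant region of the alpha chain, was detected in 76 of 179 T cells (42.5%, exact 95% interval 35.1 to 50.1%), in 4.67% of Cd3-negative lymphocytes and in 0.122% of epithelial cells. The exact binomial intervals here and below cover counting error only. Lck, the kinase that starts receptor signalling, was found in 29.1% of T cells, Lat, its scaffold, in 20.7%, the costimulatory receptors Icos and Cd28 in 22.3% and 16.8%, and Thy1 in 29.1%. Lck (21.3%), Thy1 (31.3%) and Trbc1 or Trbc2 (30.7%) were also frequent in the Cd3-negative lymphocytes, and whether these hold T cells whose CD3 transcripts were missed was not tested. Of the rule genes, Cd3g was present in 57.5%, Cd3d in 48.0%, Cd3e in 36.9%, Trbc2 in 44.7% and Trbc1 in 31.8% of T cells, which describes the choice. Ptprc, encoding the leukocyte antigen CD45, was detected in 45.8%, so that a transcript that every T cell uses was seen in fewer than 1 of 2 cells.

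**Figure D1:**
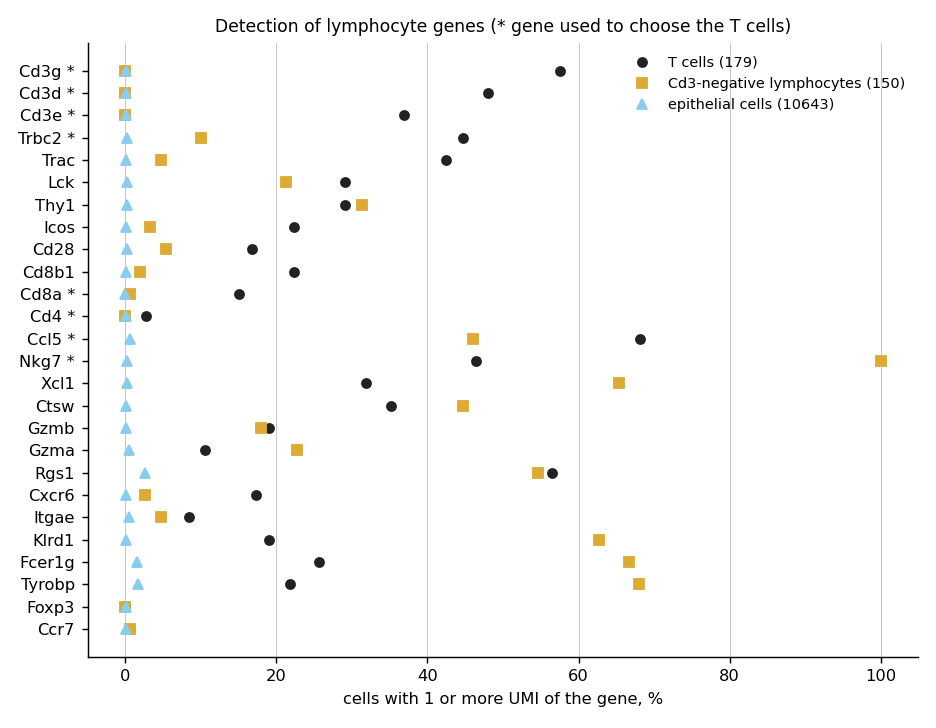
Share of cells with at least 1 UMI of each gene (x axis, %) in the 179 T cells (black circles), 150 Cd3-negative lymphocytes (yellow squares) and 10643 epithelial cells (blue triangles); asterisks mark genes used to choose the T cells. Trac (42.5%), Icos (22.3%) and Cd8b1 (22.3%) lie far to the right in T cells, Fcer1g and Tyrobp further to the right in Cd3-negative lymphocytes, as do Nkg7 and Klrd1, which helped choose these (as did Gzma and Gzmb), and Foxp3 and Ccr7 lie at or near 0 in all.

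Most transcripts of the CD3 genes and of CD8 in the whole data set were in these cells. For the CD3 genes and Cd8a this is partly set by the rule that chose the cells. T cells held 37 of 57 Cd8a UMIs (64.9%), 67 of 101 Cd8b1 UMIs (66.3%), 130 of 232 Trac UMIs (56.0%), 82 of 180 Gzmb UMIs (45.6%) and 38 of 88 Cxcr6 UMIs (43.2%). The chemokine Ccl5, also a rule gene, was less restricted, with 633 of 1955 UMIs (32.4%). Rgs1, Fyb, Tyrobp and Fcer1g were mostly elsewhere, with 2.99%, 2.24%, 1.47% and 2.10% of their UMIs in T cells. These shares matter below, where whole glands are compared. The gene for the delta constant region, Trdc, was not specific either, since only 28 of 476 Trdc UMIs (5.88%) were in T cells and 286 of the 395 cells with a Trdc UMI had a UMI of the epithelial gene Epcam.

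The 25 genes with the highest ratio of T cells to other cells, taken over the 3 Drop-seq glands with 10 or more T cells among genes outside the rule with at least 50 T cell UMIs, were led by granule and receptor genes. Gzmb, the serine protease of cytotoxic granules, had a mean CPM (UMIs scaled to a common library total) of 677 in T cells and 2.37 in other cells, a ratio of 285. Sh2d2a, an adaptor bound by Lck, followed with a ratio of 173, Cd8b1 with 125, Ms4a4b with 81.4, Trac with 68.6, Ctsw with 68.0, Xcl1 with 64.9, Icos with 57.2, Klrd1 with 57.0 and Gzma with 53.4. The others were Lck, Hcst, Ptpn22, Ptprcap, Thy1, S100a4, Rac2, Vps37b, Il21r, AW112010, Il2rg, Stk17b, Selplg, Crem and Cd52, down to a ratio of 10.6. These ratios do not set T cells apart from other lymphocytes. Gzmb was detected in 19.0% of T cells and 18.0% of Cd3-negative lymphocytes, and Klrd1 in 19.0% and 62.7%. Both genes helped choose the Cd3-negative lymphocytes. No test was applied to the ratios, because the T cells had been chosen by correlated genes.

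A UMI of the effector list or of the tissue-residence list was detected in most T cells, which is partly set by the choice of cells, since both lists hold rule genes. Recirculation transcripts, from a list of 8 genes, were detected in fewer, and the lists were not compared by a test. Ccl5 (a rule gene) was found in 68.2% of T cells, Ctsw in 35.2%, Xcl1, the chemokine that attracts cross-presenting dendritic cells, in 31.8%, Gzmb in 19.0%, Fasl in 17.3%, Gzma in 10.6% and Ifng in 6.70%. Summed over the 14 genes for cytotoxic effectors and chemokines, T cells held 77.3 UMIs per 10000, against 4.07 in other cells, but of the 1440 UMIs 633 were Ccl5 and 160 Nkg7, both rule genes, so that the contrast is largely set by the choice of cells. Of the tissue-residence genes, Rgs1 was present in 56.4%, Cxcr6 in 17.3%, Cd69 in 12.8% and Itgae in 8.38%, and the list, 131 of whose 516 UMIs were of the rule gene Cd7, reached 27.7 UMIs per 10000 with a UMI in 83.8% of cells. The 8 genes for recirculation and the naive state had 53 UMIs in 33 cells (18.4%), or 2.85 per 10000 against 0.463 in other cells. Ccr7, the homing receptor of lymph nodes, named after its value was seen, was detected in 1 of 179 cells (0.559%). Foxp3, which defines regulatory T cells, was found in 0 of 179 cells, which allows a share of up to 2.04% (upper bound of the exact interval) of cells with a UMI. Mki67 or Top2a, markers of dividing cells, were detected in 8 cells.

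Other cell types left a measurable trace in the T cell libraries. A UMI of the acinar genes Prol1, Car6 or Pip was present in 81.6% of T cells, 80.7% of Cd3-negative lymphocytes, 82.7% of C1q cells (cells with a C1qa or C1qb UMI) and 97.1% of Epcam cells. The 11 acinar and secretory genes summed to 686 UMIs per 10000 in T cells, between 14.5 in double-mutant CITE-seq cells and 954 in control Drop-seq cells. Genes of basal and tumor epithelium had 0.537 UMIs per 10000, and those of macrophages and monocytes 1.24 (10.6% of T cells with a UMI, 4 of 9 genes at 0). Both values are partly set by the rule, which barred Krt14, C1qa and C1qb. Neutrophil genes had 0, and B and plasma cell genes 2.90 (25.1% of T cells with a UMI) against 25.8 in other cells. Endothelial genes had 1.83 against 0.604 in other cells, in 3.91% of T cells, and all other lists of other lineages were lower in T cells. EYFP, the reporter of K14-Cre, was detected in 11.7% of T cells and in 11.1% of all other cells, and the share in T cells lies within that background. The part of free RNA in any T cell result was not tested.

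T cell subsets were read from the coreceptors and the constant regions of the receptor. Cd8a or Cd8b1 without Cd4 was detected in 49 of 179 T cells (27.4%, exact 95% interval 21.0 to 34.5%), in 2% of Cd3-negative lymphocytes and in 0.0470% of epithelial cells, a contrast in which Cd8a is a rule gene. For Cd8b1, which the rule did not use, the shares were 22.3% of T cells and 2% of Cd3-negative lymphocytes. Cd4, also a rule gene, was found in 5 cells (2.79%), none of them in control glands, and no cell had Cd4 together with a Cd8 gene. UMIs of a gamma or delta constant region were present in 34 cells (19.0%). For the gamma genes Tcrg-C1, Tcrg-C2 and Tcrg-C4 the share was 14% in T cells, 0.667% in Cd3-negative lymphocytes and 0.0465% in Epcam cells. Trdc alone gave 7.82% in T cells but 13.3% in Cd3-negative lymphocytes and 2.66% in Epcam cells. Of the 34 cells with a gamma or delta constant region, 25 (73.5%) also held a UMI of Trac, Trbc1 or Trbc2, and 71.7% of the remaining T cells did. Trbc1 and Trbc2 are rule genes, so these shares are partly set by the choice of cells.

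A set of 57 T cells (31.8%) with a UMI of Tyrobp or Fcer1g did not overlap by RNA with the CD8 cells. Tyrobp and Fcer1g encode adaptors with activating motifs that natural killer receptors use. This set was chosen after its values were seen, and no test was applied to it. Cd8a or Cd8b1 was detected in 0 of these 57 cells and in 49 of the other 122 (40.2%). Cd8a is a rule gene, and entry by it or by another second gene can itself set the 2 sides apart. By surface protein, given below, 2 of the 17 CITE-seq cells of the set were CD8-positive. In the set and in the other T cells, pooled over glands, Xcl1 was detected in 63.2% and 17.2%, Gzmb in 31.6% and 13.1%, and a gamma or delta constant region in 33.3% and 12.3%. The shares for Icos were 7.02% and 29.5%, and for Cd28 8.77% and 20.5%. Of the other genes that the rule used in whole or in part, Cd7 was detected in 73.7% and 10.7%, and a constant region of the alpha or beta chain in 54.4% and 80.3%, where entry by Cd7 or by Trbc1 or Trbc2 can itself set the 2 genes against each other. Cells with more UMIs hold more of any gene, and these shares were not thinned to a common depth.

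T cells were rare in most Drop-seq glands of both genotypes, and the genotypes did not differ beyond the spread between glands. At P40, control glands held 0 to 5 T cells each, or 0 to 0.585% of cells (median 0.115%, n = 6). Double-mutant P40 glands held 2 to 39 T cells, or 0.193 to 5.49% (median 0.459%, n = 7). At P90, the share was 0 to 1.71% in control glands (median 0.344%, n = 6) and 0 to 0.693% in double-mutant glands (median 0.248%, n = 7). The groups overlapped at both stages, and 5 of the 26 glands held no T cell. A count of 0 in the smallest of these glands, 642 cells, has an exact upper bound of 0.573%. The 2 glands with the most cells, double-mutant P40 replicate 2 with 39 of 710 cells and control P90 replicate 6 with 14 of 821, lay far above the rest of their groups.

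**Figure D2:**
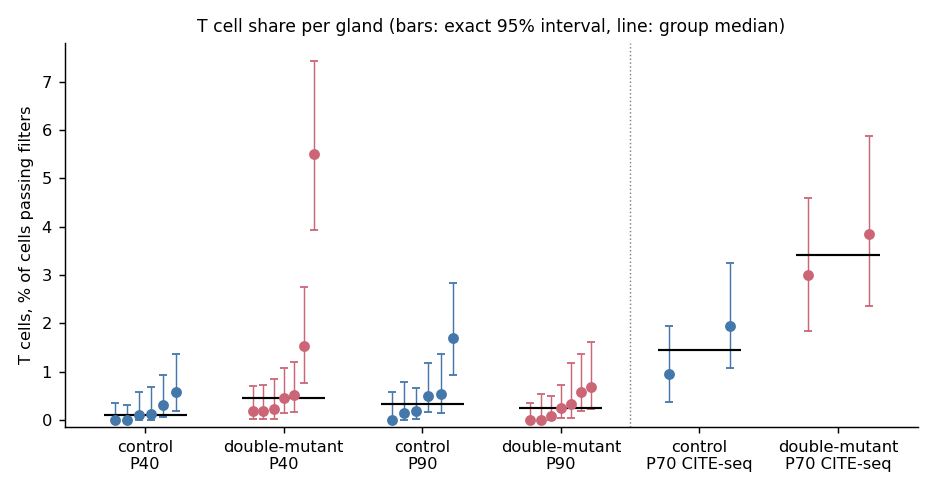
T cells as a percentage of the cells that passed the filters (y axis) in each gland (point, with its exact 95% interval) of the 6 groups, with the group median as a line; control glands are blue and double-mutant glands red. Double-mutant P40 replicate 2 stands alone at 5.49%, the remaining Drop-seq glands lie between 0 and 1.71%, and the 4 CITE-seq glands lie between 0.946 and 3.84%.

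The mean share was 0.756% ± 1.42 (SD, n = 14) in double-mutant and 0.350% ± 0.477 (SD, n = 12) in control glands. The difference of 0.406 percentage points was within the spread of the glands (two-sided permutation test, p = 0.433, 0.573 after Benjamini-Hochberg adjustment over the genotype, stage and sex comparisons). It was 0.0418 points without double-mutant P40 replicate 2 (p = 0.805, permutation test) and 0.529 points without control P90 replicate 6 (p = 0.143, permutation test). Within stages, double-mutant glands were 1.05 points higher at P40 (exact permutation test, p = 0.0781) and 0.234 points lower at P90 (exact permutation test, p = 0.477). The change of the genotype difference from P40 to P90 was -1.28 points (permutation test, p = 0.0581). Permuting glands within the 5 batches that held both genotypes, the genotype difference was 0.118 points (permutation test, p = 0.569). This left 19 glands and dropped double-mutant P40 replicate 2, whose batch had no control gland, so the value is not a batch adjustment of all glands. The binomial mixed model with sex, stage and genotype used in the study gave a log odds of 0.509 ± 0.518 (standard error, 26 glands) for the double mutation. Of the cells with a Ptprc UMI or in the T cell set, T cells made up a mean of 9.72% in double-mutant and 10.5% in control glands (permutation test, p = 0.828). T cells without a Ptprc UMI were thus counted in the total. Fewer T cells and fewer detected T cells cannot be told apart from these shares, since detection depends on the UMIs of a cell.

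Stage and sex gave no difference beyond the spread of the glands at full depth. The mean share was 0.386% at P90 and 0.752% at P40 (permutation test, p = 0.573), and the sign of this difference turned to 0.0291 points higher at P90 without double-mutant P40 replicate 2. Among controls all P40 glands were from batches B12 to B14 and all P90 glands from B7 to B9, and in controls the stages and the batches cannot be told apart. Male glands had 0.315% and female glands 0.787% T cells (permutation test, p = 0.292). With every cell thinned to 300 UMIs, which leaves out shallower cells, the shares were 0.0896% and 0.480% and the difference passed an unadjusted threshold (permutation test, p = 0.0420), and with 500 UMIs it did not (permutation test, p = 0.0849). Without double-mutant P40 replicate 2 the difference between sexes at full depth was -0.110 points.

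The CITE-seq glands held more T cells than the Drop-seq glands. Control P70 replicates 1 and 2 held 14 of 718 and 7 of 740 cells (1.95% and 0.946%), and double-mutant P70 replicates 1 and 2 held 20 of 668 and 20 of 521 (2.99% and 3.84%). Both double-mutant glands were above both control glands, which with 2 glands each cannot pass an exact test. The 4 glands exceeded the Drop-seq glands by 1.86 points on average (exact permutation test, p = 0.0277), and by 1.03 points with cells thinned to 300 UMIs (exact permutation test, p = 0.0598). The assay, the stage, fresh in place of methanol-fixed cells and batch B15 cannot be told apart in this comparison.

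The makeup of the T cells by genotype was given by few cells per gland. A Cd8 gene was detected in 6 of 36 control and 29 of 82 double-mutant Drop-seq T cells (16.7% and 35.4%), with 19 of the 29 from double-mutant P40 replicate 2, and in 1 of 21 control and 13 of 40 double-mutant CITE-seq T cells (4.76% and 32.5%). Over the 13 Drop-seq and CITE-seq glands with at least 5 T cells, the mean share per gland was 21.3% ± 19.3 (SD, n = 8) in double-mutant and 12.3% ± 8.67 (SD, n = 5) in control glands. The double-mutant glands ranged from 0 to 48.7% and the control glands from 0 to 20%, and they overlapped (exact permutation test, p = 0.343, 0.687 after adjustment over 8 classes). In the 9 Drop-seq glands alone the difference was -0.582 points (exact permutation test, p = 1). With at least 10 T cells only 1 control and 2 double-mutant Drop-seq glands were left, with 14.3% and a mean of 42.5%, and no test was possible.

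None of the other planned classes passed the test in these glands. Gzmb was found in 19.6% ± 9.43 (SD, n = 8) of the T cells of double-mutant and 26.3% ± 9.77 (SD, n = 5) of those of control glands, and Mki67 or Top2a in 10.7% ± 14.4 (SD, n = 8) and 1.43% ± 3.19 (SD, n = 5). The adjusted p over the 8 classes was 0.638 for both (exact permutation tests). Tyrobp or Fcer1g was found in 21 of 36 control and 19 of 82 double-mutant Drop-seq T cells (58.3% and 23.2%) and in 12 of 21 control and 5 of 40 double-mutant CITE-seq T cells (57.1% and 12.5%). Per gland the control glands ranged from 40 to 85.7% and the double-mutant glands from 0 to 80%, with means of 61.4% and 27.9%, and 2 double-mutant Drop-seq glands, P40 replicate 3 and P90 replicate 3, lay at 80% with 4 of 5 cells each. This is a description with no test.

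**Figure D3:**
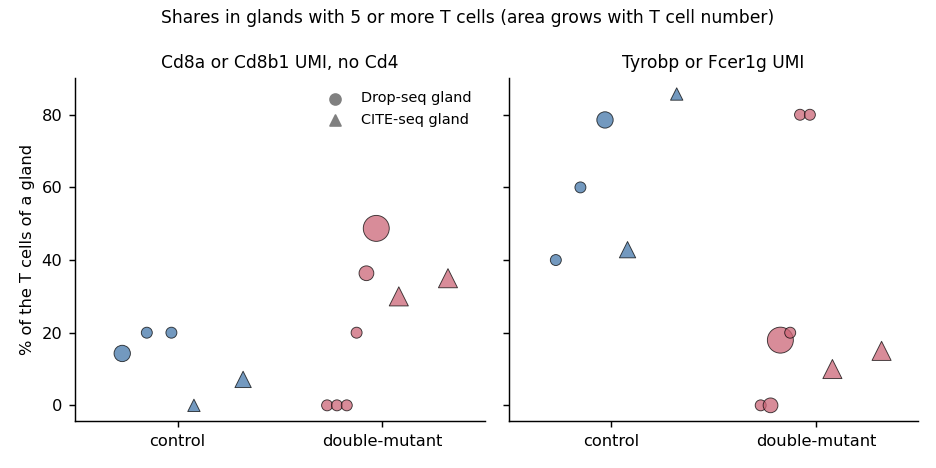
Percentage of the T cells of a gland (y axis) with a Cd8a or Cd8b1 UMI and no Cd4 (left) or with a Tyrobp or Fcer1g UMI (right), for the 13 glands with at least 5 T cells; circles are Drop-seq and triangles CITE-seq glands, and larger symbols stand for more T cells. Control glands lie between 0 and 20% on the left and between 40 and 85.7% on the right, and double-mutant glands overlap them in both.

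Within T cells none of the genes that could be tested passed between genotypes, and the power was low. The planned fit over Drop-seq glands with at least 10 T cells could not be made with 3 glands, and glands with at least 5 T cells were used, 3 control (all female) and 6 double-mutant. With edgeR's quasi-likelihood test and sex and stage as covariates, 0 of 101 genes passed an adjusted p of 0.05 (0% of genes), 9 had an unadjusted p under 0.05, and DESeq2 called 0. Most of the 101 were ribosomal genes, and few were lymphocyte genes, among them Ccl5, Xcl1, Rgs1 and Cd52. Cd8a, Cd8b1, Icos, Ctla4, Trac and Gzmb were too rare to be tested in this fit, so it says nothing of them. With no filter on low counts 0 of 9860 genes passed (0%). For stage 0 of 101 genes passed (0%; 6 at an unadjusted p under 0.05, and 0 with DESeq2). For sex 0 passed with edgeR (0%; 14 at an unadjusted p under 0.05), while DESeq2 called 6 genes higher in males (5.94%), namely Car6, Pip, Prol1, Scgb1b27, Scgb2b26 and Spt1. These are secretory products of the salivary gland epithelium and not T cell genes. With the 4 CITE-seq glands added and assay as a covariate, but no term for sex or stage, 0 of 100 genes passed with edgeR (0%; 5 at an unadjusted p under 0.05, and 0 with DESeq2). There H2-D1, an MHC class I heavy chain, was 0.65 ± 0.25 (log2, standard error) higher in double-mutant T cells and B2m, its light chain, 0.52 ± 0.24, both with an adjusted p of 0.614 (edgeR). The difference between the genotype effect in T cells and that in the other cells of the same glands was called for 0 of 8011 genes (0%; edgeR, 14 at an unadjusted p under 0.05), in the 3 glands with at least 10 T cells. As 1 of these is the only control gland, that arm had no replicate and the count says little.

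The shares of T cells with a UMI of single genes are given by genotype as values with no test, over cells pooled from glands, with 39 of the 82 double-mutant Drop-seq cells from 1 gland. Icos was present in 8.33% of control and 31.7% of double-mutant Drop-seq T cells, and in 9.52% and 22.5% of CITE-seq T cells. In glands with at least 5 T cells it was detected in 0 to 20% of the cells of control and 15 to 40% of those of double-mutant glands, which overlap. Trac was found in 27.8% and 40.2% of control and double-mutant Drop-seq T cells, and in 28.6% and 67.5% of CITE-seq T cells. Of the 33 double-mutant Drop-seq cells with Trac, 21 were from P40 replicate 2, and in the Drop-seq glands with at least 5 T cells Trac was found in 28.6 to 60% of the cells of control and 20 to 53.8% of those of double-mutant glands, which overlap. Ctla4, the inhibitory receptor that competes with Cd28, was detected in 19 T cells, 15 in double-mutant Drop-seq glands and 4 in double-mutant CITE-seq glands, and in 0 of 36 and 0 of 21 control T cells. The inhibitory receptor Tigit was found in 13 T cells, all from double-mutant glands, and Pdcd1 in 16, of which 15 were from double-mutant glands; both were named after their values were seen.

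Summing all cells of a gland gave a reading of T cell transcripts that needs no cell to be called. In bulk sums, fewer T cells and less RNA per T cell cannot be told apart. After the filter on low counts, 8768 genes were tested across the 26 Drop-seq glands with edgeR's quasi-likelihood test, and 1894 were called (21.6%; 1224, or 14%, higher and 670, or 7.64%, lower in double-mutant glands). With a batch term 183 were higher and 18 lower. Nearly all T cell genes were too rare to pass this filter, 1 of the 11 genes of the receptor complex, 1 of the 18 genes of receptor signalling and 0 of the 3 coreceptors. Trdc fell by 1.2 ± 0.33 (log2, standard error) in double-mutant glands (edgeR, adjusted p = 0.0129), but most of its UMIs were outside the T cells. Fyb rose by 1.28 ± 0.38 (edgeR, adjusted p = 0.0206) and Rgs1 by 1.19 ± 0.40 (edgeR, adjusted p = 0.0349), again with under 3% of their UMIs in T cells. With the batch term Trdc, Fyb and Rgs1 were not called, although Trdc (-1.03) and Fyb (1.34) kept their direction. Ccl5, with 32.4% of its UMIs in T cells, was 1.09 ± 0.58 higher and did not pass (edgeR, adjusted p = 0.169), although it passed without the filter (0.97 ± 0.32, edgeR, adjusted p = 0.0317), nor did Nkg7 (-0.08 ± 0.62, adjusted p = 0.937) or Xcl1 (0.05 ± 0.54, adjusted p = 0.958). Without the filter the standard errors of Nkg7 and Xcl1 were also smaller, at 0.38 and 0.35.

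Without the filter, the coreceptors and several costimulatory and inhibitory receptors were higher in double-mutant glands while the CD3 genes were not called. This fit tested 29219 genes and called 2917 (9.98%; 2137, or 7.31%, higher and 780, or 2.67%, lower), with a median log2 difference of 0.10 over all genes. It took in genes with very few UMIs and gave the genes named above smaller standard errors than the filtered fit. Its errors and adjusted p are therefore not comparable with those of the filtered fit, and a call here is weaker evidence. Axin2, a target gene of β-catenin, was 3.26 ± 0.35 higher in double-mutant glands in this fit (edgeR, adjusted p = 3.31e-13), which checks the genotype labels. Cd8a was represented by 2 UMIs in 2 of 12 control glands and 38 UMIs in 8 of 14 double-mutant glands, a difference of 3.37 ± 0.80 (edgeR, adjusted p = 0.00140). Cd8b1, with 8 UMIs in 5 control and 59 UMIs in 8 double-mutant glands, was 2.41 ± 0.69 higher (edgeR, adjusted p = 0.0116). Of these UMIs 22 and 39 came from double-mutant P40 replicate 2, and without it Cd8a was 2.38 higher (edgeR, adjusted p = 0.0414) and Cd8b1 1.17 higher (edgeR, adjusted p = 0.350). Icos rose by 1.82 ± 0.46 (34 UMIs in controls, 116 in double mutants, edgeR, adjusted p = 0.00334), Cd28 by 2.20 ± 0.53 (12 and 71 UMIs, edgeR, adjusted p = 0.00174) and Ctla4 by 3.42 ± 0.62 (5 and 70 UMIs, edgeR, adjusted p = 1.08e-05). The corresponding shares of their UMIs in called T cells were 34.6%, 26.4% and 25.5%, so most of this RNA was in cells that the rule did not take. Thy1 (2.05 ± 0.33, edgeR, adjusted p = 5.68e-07) and the cytokine receptors Il21r (2.17 ± 0.35, edgeR, adjusted p = 4.88e-07) and Il2rg (1.597 ± 0.316, edgeR, adjusted p = 6.96e-05) rose in every alternative run, but 15.2%, 12.5% and 11% of their UMIs were in T cells.

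The CD3 genes themselves were 1.45 ± 0.57 (Cd3e, 19 and 58 UMIs, edgeR, adjusted p = 0.0939), 1.30 ± 0.53 (Cd3d, 24 and 81 UMIs, edgeR, adjusted p = 0.112) and 0.36 ± 0.46 (Cd3g, 57 and 93 UMIs, edgeR, adjusted p = 0.645) higher and did not pass, nor did Trac (1.22 ± 0.48, adjusted p = 0.0986). With a batch term Cd8a (adjusted p = 0.448), Icos (adjusted p = 0.367) and Cd28 (adjusted p = 0.228) no longer passed in edgeR, and Ctla4 did (adjusted p = 1.35e-05). DESeq2 did not call Cd8a (adjusted p = 0.0741) or Cd8b1 (adjusted p = 0.176). Without control P90 replicate 6, Cd3e (1.85 higher, adjusted p = 0.0119) and Trac (1.79 higher, adjusted p = 0.00151) passed in edgeR. By list, 0 of 11 genes of the receptor complex rose and 1 fell, 8 of 18 signalling genes, 3 of 3 coreceptors, 4 of 7 inhibitory receptors, 3 of 14 cytotoxic genes and 3 of 7 cytokine receptors rose, beside 7.31% of all genes. In the same fit 9 of 9 macrophage and monocyte genes, 7 of 8 pan-leukocyte genes and 5 of 9 B and plasma cell genes rose, and their part in the T cell genes was not tested.

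T cells and Cd3-negative lymphocytes of the same glands were compared in the 3 CITE-seq glands with at least 10 cells of both, with gland as a block. Both populations were chosen by genes correlated with those tested. Of 208 genes outside the rules, 5 were called by edgeR (2.4%; 2, or 0.962%, higher and 3, or 1.44%, lower in T cells). Fcer1g was lower by 2.50 ± 0.40 on the log2 scale (log2 difference -2.50, edgeR, adjusted p = 4.24e-06), Tyrobp by 2.18 ± 0.41 (-2.18, edgeR, adjusted p = 9.61e-05) and Xcl1 by 1.11 ± 0.26 (-1.11, edgeR, adjusted p = 0.00255). Rgs1, a regulator of G protein signalling typical of resident lymphocytes, was 1.06 ± 0.26 higher (edgeR, adjusted p = 0.00406) and H2-Q7, a non-classical MHC class I gene, 1.54 ± 0.42 higher (edgeR, adjusted p = 0.0150). With glands of at least 5 cells of both populations, none of the 5 was called (adjusted p of 0.0789 for Fcer1g and Tyrobp, edgeR), and the ribosomal gene Rps2 was the 1 gene called. DESeq2 called Fcer1g and Tyrobp alone. Xcl1 was not called without double-mutant replicate 1, H2-Q7 without double-mutant replicate 2, and Rgs1 and H2-Q7 without control replicate 1, whereas Fcer1g and Tyrobp were called without any of the 3 glands.

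Surface proteins were read from 61 antibodies, and the tags were not used to choose the T cells, although Cd8a and Cd4 transcripts were among the second genes of the rule and C1qa and C1qb, which myeloid cells share with CD11b and MHC class II, were barred by it. No antibody to CD3 was in the panel. Tags were summed over the T cells and over the other cells of each of the 4 CITE-seq glands, and 9 of 61 antibodies were called (14.8%; 7, or 11.5%, higher and 2, or 3.28%, lower on T cells; edgeR, gland as block). Without TMM scaling 20 were called, 7 higher and 13 lower. CD103 was 3.06 ± 0.31 higher (log2, standard error, edgeR, adjusted p = 0.000260), with 32.3 and 44.7 tags per 1000 on the T cells of control replicates 1 and 2 and 58.5 and 41.0 on those of double-mutant replicates 1 and 2, against 5.75 to 8 on other cells. Every gland showed this difference, between 2.25 and 2.87 on the log2 scale before scaling between libraries. CD8 was 3.47 ± 0.60 higher (edgeR, adjusted p = 0.00334), with 27.0 and 5.10 tags per 1000 on control and 64.7 and 80.4 on double-mutant T cells, against 3 to 5.05 on other cells. In log2 units the CD8 difference was 3.17 and 0.59 in the control and 4.24 and 3.99 in the double-mutant glands, so that control replicate 2 lay well below the others.

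The other 5 antibodies called higher on T cells were CD38, Ly6C, CD29, CD54 and Ly6A_E. CD38 was 2.68 ± 0.46 higher (edgeR, adjusted p = 0.00334), Ly6C 2.50 ± 0.65 (edgeR, adjusted p = 0.0282), CD29, the beta 1 integrin, 2.13 ± 0.48 (edgeR, adjusted p = 0.0139), CD54, the adhesion molecule ICAM-1, 1.99 ± 0.30 (edgeR, adjusted p = 0.00209) and Ly6A_E (Sca-1) 1.77 ± 0.32 (edgeR, adjusted p = 0.00405). MHC class II was lower with -3.21 ± 0.41 (antibody IAIE_MHC, edgeR, adjusted p = 0.000838) and CD11b with -2.13 ± 0.41 (edgeR, adjusted p = 0.00539), the proteins of antigen-presenting and myeloid cells. CD69, which marks activated and resident T cells, showed -0.02 ± 0.31 (edgeR, adjusted p = 0.941) and CD25, the interleukin-2 receptor alpha chain, 0.04 ± 0.27 (edgeR, adjusted p = 0.940), and neither passed. CD4 was 1.27 ± 0.44 higher and did not pass (edgeR, adjusted p = 0.102; DESeq2, adjusted p = 0.0399). The 4 isotype controls gave per-gland differences between -1.39 and 0.79. Without control replicate 1, only CD103, CD54 and MHC class II were called.

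**Figure D4:**
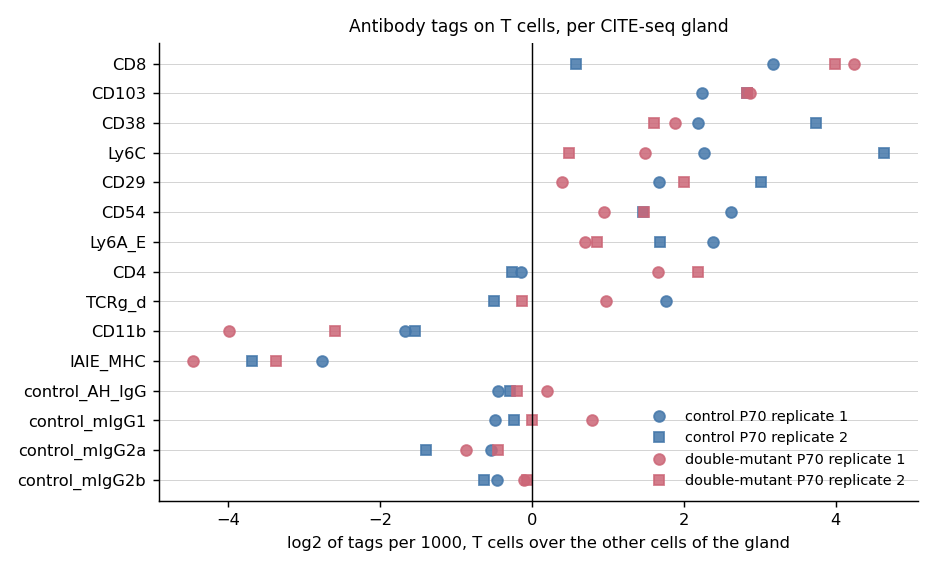
Difference between T cells and the other cells of the same gland in tags per 1000 antibody tags (x axis, log2) for 11 antibodies and 4 isotype controls; each symbol is 1 CITE-seq gland, blue for control and red for double-mutant. CD103 lies between 2.25 and 2.87 in all 4 glands, CD8 spreads from 0.59 to 4.24, CD4 lies above 1.6 in both double-mutant and below 0 in both control glands, and the isotype controls lie between -1.39 and 0.79.

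Against the Cd3-negative lymphocytes of the same 4 glands, 3 of 61 antibodies were called (4.92%), all higher on T cells (edgeR, gland as block). CD8 was 2.77 ± 0.30 higher (edgeR, adjusted p = 0.00404), CD103 2.07 ± 0.27 (edgeR, adjusted p = 0.00625) and Ly6A_E 1.91 ± 0.33 (edgeR, adjusted p = 0.0205). A Cd8a UMI could admit a T cell but not a Cd3-negative lymphocyte. The CD8 difference is therefore partly set by the choice of cells. Both double-mutant glands were female and control replicate 1 was male, and the next fit had no sex term. The genotype difference of T cells over other cells was called for 2 of 61 antibodies (3.28%). It was 2.14 ± 0.41 for CD4 (edgeR, adjusted p = 0.0186), with 4.26 and 3.57 tags per 1000 on the T cells of the control and 13.1 and 18.7 on those of the double-mutant glands. In double-mutant replicate 2 this rested largely on 1 cell at 214.8 tags per 1000, which was also CD8-positive, while in replicate 1 the highest cell had 73.9. It was 3.95 ± 0.61 for Delta_Like_4 (edgeR, adjusted p = 0.00773), which rested on single cells, at 114 tags per 1000 in double-mutant replicate 1 and 227 in replicate 2, with 1 T cell above the threshold described next. For CD8 it was 2.14 ± 0.79 (edgeR, adjusted p = 0.225).

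Per cell, a T cell was counted as positive above the 99th percentile of the Epcam-positive, Ptprc-negative cells of its gland. CD103 was above this threshold on 29 of 61 T cells (47.5%, exact 95% interval 34.6 to 60.7%) and on 17 of 78 Cd3-negative lymphocytes (21.8%). The positive cells were 5 of 14 and 2 of 7 in the control and 14 of 20 and 8 of 20 in the double-mutant glands. CD8 was above it on 22 of 61 T cells (36.1%, exact 95% interval 24.2 to 49.4%) and 6 of 78 Cd3-negative lymphocytes (7.69%). These were 2 of 14 and 1 of 7 T cells in the control and 10 of 20 and 9 of 20 in the double-mutant glands, and with 2 glands of each genotype the smallest exact p is 1 in 3. CD4 was positive on 6 cells, the gamma-delta receptor (antibody TCRg_d) on 5 and CD38 on 18. No protein among CD8, CD4 and TCRg_d was positive on 29 of the 61 T cells, and 1 cell was positive for both CD8 and CD4.

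Protein and RNA of CD8 went together in single cells. All 14 T cells with a Cd8a or Cd8b1 UMI were positive for surface CD8, with a median of 155 tags per 1000 (47.3 to 250.6), and 8 of the 47 cells without a Cd8 UMI were positive as well (median 3.48). Thus 22 cells were CD8-positive by protein where RNA showed 14. None of the 10 cells with a UMI of a gamma or delta constant region was CD8-positive, and 3 of these 10 were positive for TCRg_d, against 2 of the 51 others. Of the 17 cells with a Tyrobp or Fcer1g UMI, 2 were CD8-positive, with at most 19.9 tags per 1000, against 20 of the other 44. For CD103, RNA and protein were not tied in this way: 2 of 5 cells with an Itgae UMI and 27 of 56 cells without were positive. Of the 22 CD8-positive cells 13 were CD103-positive, and of the 39 others 16.

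**Figure D5:**
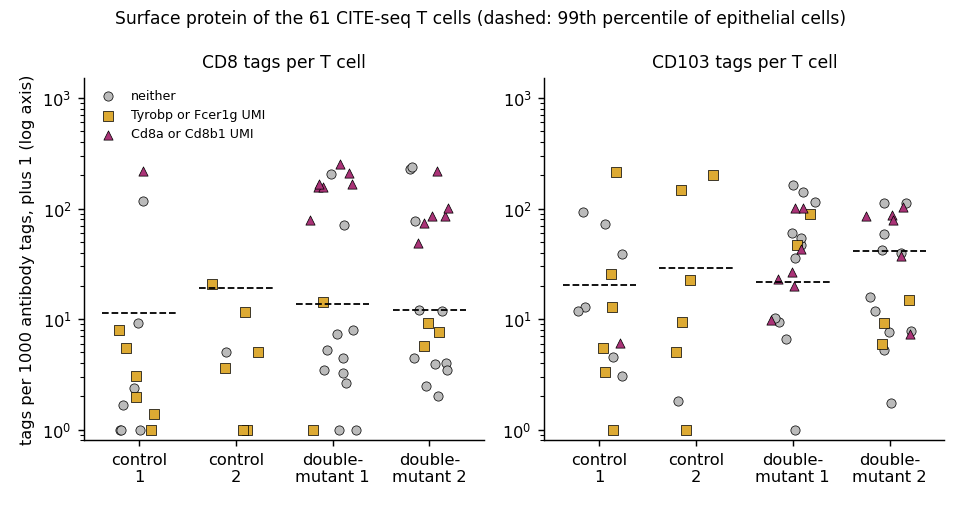
Tags per 1000 antibody tags, plus 1, on a log axis for CD8 (left) and CD103 (right) on each of the 61 CITE-seq T cells by gland, with the threshold as a dashed line; triangles mark cells with a Cd8a or Cd8b1 UMI, squares cells with a Tyrobp or Fcer1g UMI and circles cells with neither. All 14 triangles lie above the CD8 threshold, and 2 of the 17 squares do.

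In bulk mRNA-seq of a control gland (P70) and a double-mutant gland (P100), T cell genes were at the lower end of detection. Trac had 7 reads in the control and 28 in the double-mutant library (a TPM, the length-scaled share of reads, of 0.190 and 0.768), Trbc2 had 13 and 40 (0.478 and 1.48 TPM), Cd3e 13 and 20, Cd3g 28 and 43, and Cd3d 16 and 15. Trdc had 82 and 43 reads. Of 10 receptor complex genes with a fold, 3 were past 2-fold higher and 0 past 2-fold lower in the double-mutant library (median log2 0.61), beside 3.42% and 7.31% of the 13118 genes compared (median log2 -0.29). These values compare 2 libraries that also differ in age, and no test was possible.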

How the data were processed

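Drop-seq and CITE-seq UMI counts, antibody tag counts and bulk read counts were analysed as the authors deposited them. Per the labels and the study's methods, reads were aligned with STAR to mm10, single-cell counts were made with Drop-seq tools and bulk counts with featureCounts on exons. The deposited counts carry no normalization, and whether antibody tag counts are UMIs or reads is not given in the sources used here. Tags matching no antibody (159352 to 456709 a library, beside 2223646 to 6516571 antibody tags) were left out. Human spike-in cells had been removed by the authors from CITE-seq. Groups come from the labels.

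Barcodes with at least 100 genes and under 15% mitochondrial UMIs were kept; the study also set an upper limit of 2500 genes in CITE-seq, used here as an alternative. No doublet caller was run. The gland was the replicate, and p-values measure the spread between glands. Shares were compared by two-sided permutation (exact where a group had fewer than 10 glands, otherwise 100000 resamples). Summed counts were compared with edgeR 4.0.16 (quasi-likelihood, TMM, filterByExpr; R 4.3.3) and DESeq2 1.42.0, adjusted by Benjamini-Hochberg over all features tested, at 0.05. The mixed model used lme4 1.1.37. Antibody tags are per 1000 antibody tags of a cell or sum. CPM were computed from summed counts and TPM from bulk counts and the deposited feature lengths. Thinned shares are means over 200 draws. Scripts were tested on simulated data.

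The planned minimum of 10 T cells per gland left too few glands, and 5 was used. Genes were named when a gene list held them with at least 20 T cell UMIs, when they were called (12 smallest p per direction), among the 25 highest ratios, or as part of a class or a selection rule; Ccr7, Tigit, Pdcd1, Axin2 and the antibodies not called (CD4, TCRg_d, CD69, CD25) were named after their values were seen. The members and the lists were chosen with earlier results of these data known. Alternatives (normalization, filters, gland left out, thinning, batch) are in the closing section.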

Additional observations from a re-analysis of the deposited data

Results flagged for a closer look

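In 12 groups of 6 or 7 glands tested for a gland far from the others by Dixon's criterion, 6 values stood out. The makeup of the T cells was tested in double-mutant Drop-seq glands only, since too few control glands held at least 5 T cells. The makeup tests used the same glands, most with 5 T cells. The rate of about 1 in 20 that chance gives in separate groups therefore does not hold for them. By the share of T cells, control P90 replicate 6 stood out with 1.71% and double-mutant P40 replicate 2 with 5.49%. By the makeup of the T cells, double-mutant P40 replicate 3 stood out 3 times, each on 3 of 5 cells, with 60% for a gamma or delta constant region, 60% for Itgae and 60% for Klrd1. All 3 values come from the same 5 cells, which were deep. At a near-equal share of Trac among all UMIs, they held 8 Trac UMIs, against 1 in the 5 T cells of double-mutant P90 replicate 3. Cells with more UMIs hold more of any gene, and the part of depth in these 3 values was not tested. Double-mutant P90 replicate 3 stood out with 40% of T cells with Gzmb, on 5 T cells.

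Between genotypes, the surface difference of T cells over other cells differed by 2.14 (log2) for CD4 and by 3.95 for Delta_Like_4, by a test of the difference in edgeR over 2 control and 2 double-mutant glands. For CD4, 5 of 40 double-mutant T cells were above the threshold, and the 1 of them in replicate 2 had 214.8 tags per 1000. For Delta_Like_4, 1 of 40 was above it, and the highest cells had 114 and 227.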

How the results depend on the processing

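The T cell share by genotype kept its direction except as a share of the cells with a Ptprc UMI or in the T cell set (-0.826 points), and ranged from 0.0418 to 0.529 when a gland was left out. The share by stage turned to 0.0291 points without double-mutant P40 replicate 2 (-0.476 to 0.0291 over the glands left out) and to 0.0371 log odds in the mixed model without it, and the share by sex passed the threshold with cells thinned to 300 UMIs (-0.390 points; -0.402 to -0.110 with a gland left out). Genes called in T cells numbered 1 by genotype when thinned to the smallest gland (Prol1), 0 to 1 by genotype and by stage with a gland left out (Klk1, without double-mutant P90 replicate 3), and 6 by sex with DESeq2 and 3 with no filter. In the fit over both assays they numbered 9 with no filter, mostly secretory or contractile genes (Dcpp1, Dcpp2, Dcpp3, Klk1), and 1 with the replicate block (Xcl1). In whole glands 2917 genes were called with no filter, 201 with a batch term (183 higher, 18 lower) and 2903 with the replicate block (1541 higher, 1362 lower), against 1894 (1224 higher, 670 lower), and in the fit with no filter 1584 with a batch term and 1911 with DESeq2. Xcl1 turned to -0.019 with no filter, -0.57 with a batch term and -0.25 without double-mutant P40 replicate 2, and Cd3g with no filter lay between -0.19 (without that gland) and 0.89 with a gland left out. T cells against Cd3-negative lymphocytes gave 2 genes with DESeq2, 3 with RLE size factors, 13 with no filter, 1 with at least 5 cells and 4 to 6 with a gland left out. Surface proteins numbered 20 without TMM (7 higher, 13 lower) and 3 to 9 with a gland left out, and the genotype interaction 4 without TMM. The cause of these changes was not tested.

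Same-numbered replicates did not all deviate together. Of 12 pairs, 5 had a correlation over 0.1, all of them at P40 (0.152 to 0.534; the sixth was -0.111), none did at P90, and 2 correlated best with their own number (-0.315 to 0.534 over 6544 genes). With the replicate block, over the 24 glands whose number occurred in both genotypes, the genotype difference in share was 0.513 points (permutation test, p = 0.327). Glands with at least 10 or 20 T cells, a batch term and the replicate block could not be fitted for T cell genes in Drop-seq. Alternatives on both assays together, on single glands left out and on the fit with no filter were chosen after seeing the data. With a median of 725 UMIs per T cell, absence of a UMI says little of a gene.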
